A study of Mus musculus with 26 samples.

Results

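EA1 is a murine lung cancer line that carries an EML4-ALK fusion, and the question addressed here was which transcripts change when these cells are held in the ALK inhibitor alectinib. Of the 26 RNA sequencing libraries in the series, 8 came from EA1, and all 8 were used. In 4 of them the cells had received 100 nM alectinib for 1, 2, 3 or 5 days, and in the other 4 the solvent DMSO at 0.1% for the same times, with 1 library per treatment and day. These days are those of the sample labels, which were followed, whereas the protocol text of the series lists days 1, 3, 5 and 7. EA1 was isolated from a tumor of a C57BL/6 mouse, in which an adenovirus encoding Cas9 and guide RNAs had joined Eml4 and Alk, and the cells grew in RPMI with 10% serum. The same treatments of EA2 and EA3, which carry the same fusion and come from other mice, were fitted in the same model, so that they share in the filter and the estimate of spread behind every EA1 test, and are described below only where EA1 differs. EA1 is a single line, and no day was repeated, so that the spread behind each test is that between days.

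ALK is a receptor tyrosine kinase, and the fusion to EML4 makes its kinase domain active without a ligand. The active kinase signals through RAS, RAF, MEK and ERK, through PI3K and AKT, and through STAT3, and alectinib occupies the ATP pocket of the kinase. These pathways feed growth, protein synthesis and amino acid supply in the cell. Inhibition of such a driver is known to slow the cell cycle while some cells survive in a slowly dividing state. The genes below are ordered by what their products do, beginning with the contractile apparatus and the matrix.

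Levels are given as CPM, that is counts per 1000000 counts of the library after scaling by TMM factors, always in the order of days 1, 2, 3 and 5. Tests are those of edgeR, in a quasi-likelihood model that holds a block for every day of every line, and "rose" and "fell" are used for genes with a Benjamini-Hochberg adjusted p-value below 0.05 over the 14264 genes tested. EA1 libraries held between 8212251 and 11732401 counts, so that a count of 3, taken as the floor, corresponded to between 0.251 and 0.388 CPM. The exact interval of a count ratio and the floors cover counting error only. Confidence intervals of edgeR differences also include the spread between libraries.

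A split among the libraries that the labels do not explain has to be stated before the results. Transcripts of 6 mitochondrial genes (mt-Co2, mt-Co3, mt-Atp6, mt-Atp8, mt-Nd3 and mt-Nd4l) gave between 2.88 and 4.70 counts per 100 counts of 6 other mitochondrial genes (mt-Nd1, mt-Nd2, mt-Co1, mt-Cytb, mt-Nd4 and mt-Nd5) in 8 of the 24 libraries, and between 0.128 and 0.239 in the other 16. In EA1, the alectinib libraries of days 1, 3 and 5 were of the first class, and the alectinib library of day 2 and all 4 DMSO libraries were of the second. The first class also held 2 DMSO and 3 alectinib libraries of EA2 and EA3. A term for this class, added to the fit after the data had been seen, was past the threshold for 576 genes that were higher and 5 that were lower in the first class (4.04% and 0.0351%, together 4.07% of genes tested). They included 529 of the 901 pseudogenes tested but 32 of the 12418 protein-coding genes. What sets these libraries apart was not tested. Counts of called genes are therefore given below also with the class as a term, and the day 2 ratio is the only one of the 4 that compares EA1 libraries of 1 class.

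**Figure D1:**
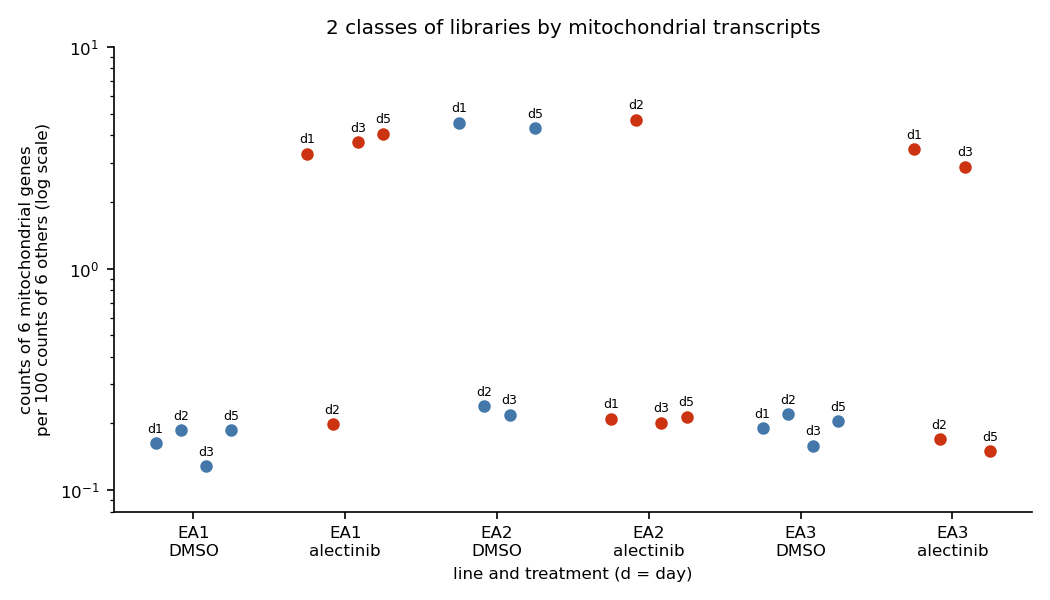
Counts of 6 mitochondrial genes per 100 counts of 6 other mitochondrial genes (vertical axis, log scale) in the 24 libraries of days 1, 2, 3 and 5, by line and treatment. Each point is 1 library, labelled with its day. The EA1 alectinib libraries of days 1, 3 and 5 lie between 3.30 and 4.07, whereas that of day 2 and the 4 EA1 DMSO libraries lie between 0.128 and 0.199.

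With alectinib, 2711 genes rose and 2080 fell in EA1, which is 19.0% and 14.6%, together 33.6%, of the genes tested. The 4 levels with alectinib did not overlap the 4 DMSO levels for 31.4% of them (18.4% higher and 13.0% lower). A log2 fold change over 1 in size was reached by 1666 of those that rose (11.7%) and 849 of those that fell (5.95%). The median over all genes tested was 0.06. The log2 ratio had 1 sign on all 4 days for 96.3% of the called genes, which is no separate measure, since the calls rest on the same days. With the library class as a term, 1716 genes rose and 1218 fell (12% and 8.54%, together 20.6%), and 2797 of these 2934 calls were shared in the same direction. Without day 3, on which the DMSO levels of Thbs1 and Areg given below lay farthest from those of the other days, the numbers were 1436 and 1360. On the first principal component, which held 61.2% of the variance among the 8 libraries, all 4 alectinib libraries lay on the opposite side from all 4 DMSO libraries. As a check of the treatment, 14 of 19 genes of a list of MAPK targets fell and 0 rose. Alk, whose kinase part is transcribed from the fusion, read 77.0, 79.8, 71.7 and 59.7 CPM in DMSO and 57.2, 49.0, 41.4 and 40.7 CPM with alectinib, so that the target's transcript was present in every library and lower with the drug by 0.62 on the log2 scale (adjusted p = 0.00306, edgeR).

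The EA1 label was set against marker genes. Of the genes that define epithelium, Cdh1 (E-cadherin) was measured at 429, 683, 558 and 516 CPM in DMSO and Krt8 (a simple epithelial keratin) at 2204, 2547, 1688 and 4169 CPM. Epcam was low, at 1.46, 3.23, 0.321 and 0.388 CPM, and at the floor on days 3 and 5. The alveolar type 2 genes Nkx2-1, Sftpa1 and Hc and the airway gene Scgb1a1 had no count in any EA1 library, and Sftpc had at most 1. Of the 15 alveolar type 2 genes 4 passed the filter on low counts. These 4 summed to between 60.6 and 91.6 CPM in DMSO and between 114.6 and 298.5 CPM with alectinib. Of these 4, 1 rose, Cxcl15, and 1 fell (25.0% each, against 19.0% and 14.6% of all genes). Their median log2 fold change was 0.234. The higher sum includes the levels of Cxcl15 given below and is no shift of the list. Of the 15 alveolar type 1 genes 12 passed, and their list summed to between 871 and 1470.0 CPM in DMSO and between 708.5 and 922 CPM with alectinib. E-cadherin and epithelial keratin were thus measured, several defining markers of alveolar type 2 and airway secretory cells were at or near 0, and other members of these lists were present. The airway secretory list summed to between 13.7 and 78.2 CPM in DMSO and between 88.7 and 141 CPM with alectinib, and 3 of its 4 tested members rose (against 19.0% of all genes). However, 9 of its 13 genes were not tested, and 0 had at least 10 counts in every library. Of 14 fibroblast genes, Tcf21 was at 0 in all EA1 libraries and Thy1 and Pi16 had at most 2 counts, while the summed level of the list lay between 12.7 and 68.2 CPM in DMSO and between 169 and 541 CPM with alectinib. The immune list summed to at most 9.57 CPM and the endothelial list to at most 6.63 CPM, with Ptprc at no more than 1 count and Cldn5 at 0. In bulk libraries, a change in the number of cells of a kind and a change in RNA per cell cannot be told apart.

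Most contractile genes of smooth muscle rose with alectinib. These genes encode the actin, myosin light chain and actin-binding proteins of the contractile apparatus and are classical targets of serum response factor. Of 14 tested members of the list, 12 rose and 0 fell, against 19.0% and 14.6% of all genes, with a median log2 fold change of 4.49. With the class term 12 still rose (against 12%), and on day 2 alone the median log2 ratio was 3.16. The median depended on the filter, at 2.32 over 17 genes without one and 0.995 over the 5 genes that had at least 10 counts in every library. For members at or near the floor in DMSO, such as Myl9 below, a rise was the only change that could be called. Acta2, smooth muscle actin, read 4.39, 5.68, 1.07 and 2.33 CPM in DMSO and 462, 564, 470.4 and 688 CPM in alectinib. Every alectinib library was therefore far above every DMSO library, and the log2 fold change was 7.43 (standard error 0.76, adjusted p = 2.49e-05, edgeR). Acta2 lies at chr19:34241090-34255590 (mm10). Cnn1, the actin-binding calponin, went from 0.523, 0.446, 0.641 and 1.81 to 45.4, 48.5, 44.9 and 55.0 CPM, and Actg2, the enteric smooth muscle actin, from 3.66, 1.78, 2.03 and 1.68 to 128, 134, 122 and 191 CPM. For both genes the treatments were apart by more than the spread between days, with log2 fold changes of 5.94 ± 0.55 and 5.97 ± 0.38 (SE). Myl9, the regulatory myosin light chain, went from 0.523, 0.334, 0 and 0.646 to 56.7, 45.4, 34.8 and 58.0 CPM, and the actin nucleator Lmod1 and the heavy chain Myh11 also began at or near the floor, with log2 fold changes of 5.98 and 5.60. Members that DMSO cultures already expressed had smaller changes. Csrp1, a LIM protein bound to actin filaments, rose from 146, 203, 249 and 316 to 950.1, 622, 554 and 687 CPM (1.64 ± 0.27), and Tpm1, tropomyosin, from 1475, 1384, 1078 and 1315 to 3666, 2408, 2051 and 2443 CPM (0.98 ± 0.16). The kinase Mylk (0.90, adjusted p = 0.0706) and Smtn (-0.97, adjusted p = 0.0913) did not pass, and Tagln, Des and Myocd were not tested because of low counts, with Tagln at 5 counts or fewer in any EA1 library.

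CArG boxes, the sequence bound by serum response factor, were looked for on both strands in RefSeq windows of 300 bases, from 250 before to 50 after each start (GRCm38.p6). They were found in 2 of 15 windows of the contractile genes tested (13.3%, Fhl1 and Myl9) and in 1.63% of all 32851 windows. The 250 bases before the start of Myl9 (chr2:156775214-156775463, plus strand) are shown because Myl9 rose from the floor and holds such a match, in capitals. A match in this window is a description and not a binding site.
Myl9: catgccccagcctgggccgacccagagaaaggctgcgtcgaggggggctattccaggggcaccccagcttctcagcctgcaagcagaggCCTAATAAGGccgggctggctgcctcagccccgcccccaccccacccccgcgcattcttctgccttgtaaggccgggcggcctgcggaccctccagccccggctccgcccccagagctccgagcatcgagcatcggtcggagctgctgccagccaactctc

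**Figure D2:**
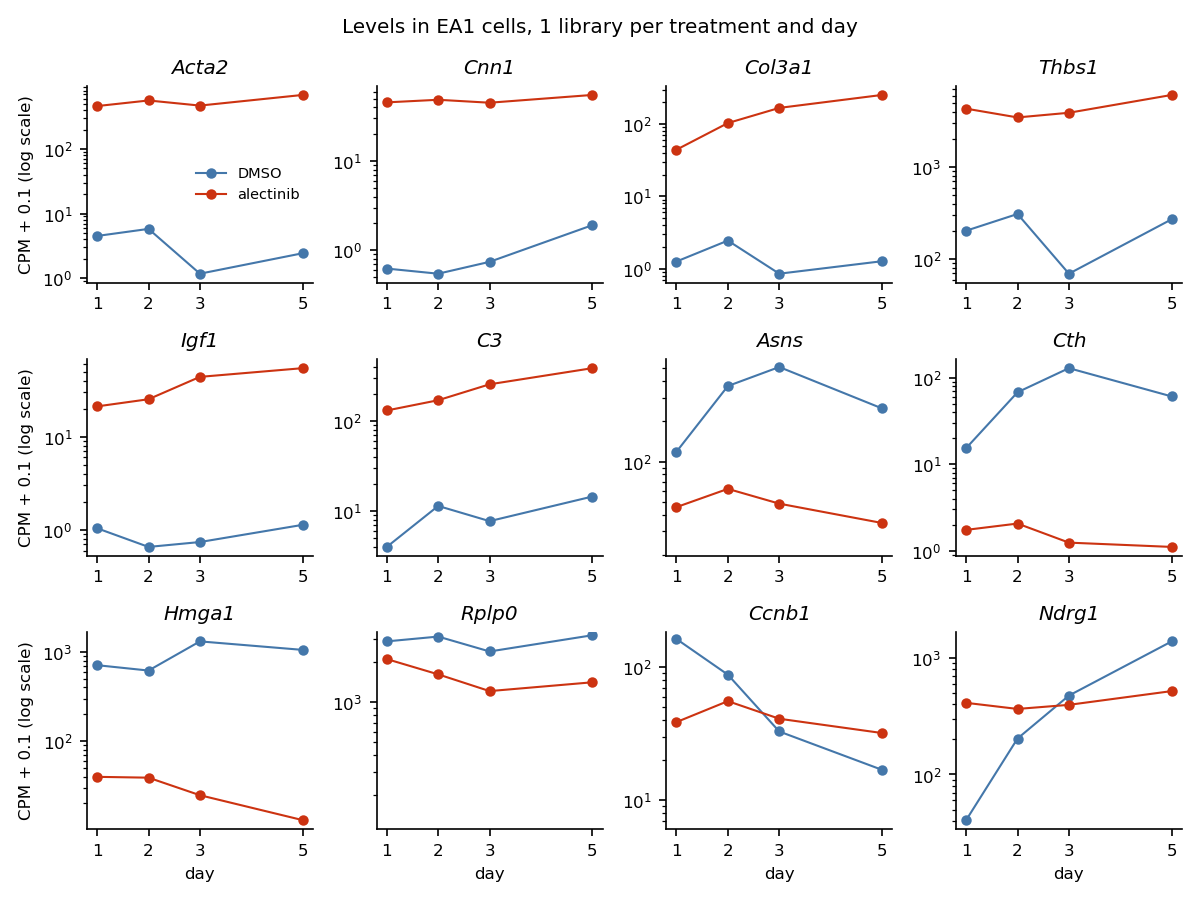
Level in CPM (vertical axes, log scale, with 0.1 CPM added to every value) of 12 genes in EA1 cells after 1, 2, 3 and 5 days (horizontal axes) of DMSO or alectinib. Each point is 1 library. Acta2, Cnn1, Col3a1, Igf1, C3 and Thbs1 lie above their DMSO level on all 4 days, Asns, Cth, Hmga1 and Rplp0 lie below it, and Ccnb1 and Ndrg1 change in the DMSO series itself.

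Of 12 genes of laminins and the basement membrane, 2 rose and 2 fell (16.7% each, near the 19.0% and 14.6% of all genes), also with the class term, with a median log2 fold change of -0.06. Of 18 collagen chain genes tested, 10 rose and 0 fell, with a median log2 fold change of 1.61, and 7 rose with the class term. Col3a1, a fibrillar collagen, read 1.15, 2.34, 0.748 and 1.16 CPM in DMSO and 44.2, 104, 168 and 254 CPM in alectinib (6.50 ± 0.47 on the log2 scale, adjusted p = 4.29e-06, edgeR). Its DMSO levels sat near 1 CPM and its alectinib levels were higher on each later day, although the change of the effect per doubling of days was not past the threshold (adjusted p = 0.251). Col5a1, which starts collagen fibrils, went from 49.4, 47.6, 42.9 and 51.4 to 243, 439, 560.4 and 587 CPM (3.19 ± 0.26), and Col4a1, of basement membranes, from 681, 609.8, 468 and 703 to 1590.0, 1944, 2314 and 2370.0 CPM (1.74 ± 0.17). No library of one treatment reached those of the other for these 3 genes. Col1a1 had a log2 fold change of 3.21 and Col5a2 of 4.14, while Col1a2 had no count in DMSO and at most 12 in alectinib. Of 7 tested fibroblast markers 6 rose and 0 fell (5 with the class term and 3 without day 3), but several passed the filter through their alectinib levels, and 1 of the 7 had at least 10 counts in every library. One was Dcn, a small proteoglycan, with 0, 0.111, 0 and 0.129 CPM in DMSO, which is 2 counts in all, and 0.868, 1.84, 6.52 and 9.55 CPM with alectinib, a ratio of 89.2 (95% exact interval 24.4 to 742, counting error only). Thbs1, thrombospondin 1, a matrix protein that can activate latent TGF-beta, went from 204, 309.6, 69.4 and 271 to 4322, 3469, 3899 and 6092 CPM (4.54 ± 0.45, adjusted p = 1.57e-05). Its lowest DMSO value was that of day 3, and on day 2 the log2 ratio was 3.48.

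Integrins, which bind the matrix, moved both ways. Of 16 tested, 7 rose and 5 fell (6 and 4 with the class term). Itga2 and Itga6, whose products bind collagen and laminin, fell, at -2.55 and -1.79 on the log2 scale, and Itga2 went from 261, 202, 404 and 228 to 58.8, 38.0, 45.1 and 41.0 CPM. Itga11, a receptor for fibrillar collagen, rose by 5.45, Itgb3 by 2.64 and the fibronectin receptor chain Itga5 by 1.57. Of 24 matrix proteases and inhibitors, 12 rose (50.0%, against 19.0% of all genes) and 4 fell (16.7%, near the 14.6% of all genes), and 11 and 3 did so with the class term. Mmp15, a membrane-bound metalloprotease, rose from 14.2, 12.5, 3.42 and 8.01 to 111, 92.2, 83.9 and 95.1 CPM (3.46 ± 0.35), and Mmp10, stromelysin 2, fell from 34.0, 80.4, 57.0 and 81.6 to 3.86, 2.57, 1.45 and 1.84 CPM (-4.66 ± 0.85). Both genes kept the direction on each day. The gelatinase Mmp2 had a log2 fold change of 2.89, the aggrecanase Adamts15 of 6.67 and the collagenase Mmp13 of -2.53. Adamts5, another aggrecanase, had no count in DMSO and 12 to 177 with alectinib, which is at least 25.2-fold higher when DMSO is set to the floor in each library. Of 20 genes of the mesenchymal transition, 7 rose and 0 fell (6 and 0 with the class term), and of 32 epithelial identity and junction genes 7 rose (21.9%, against 19.0% of all genes) and 2 fell (3 and 1 with the class term). The epithelial list holds 9 genes with at most 3 counts in EA1, and in a fit of EA1 alone 18 were tested, of which 7 rose and 4 fell. The intermediate filament Vim (0.04, adjusted p = 0.92), Fn1 (-0.33, 0.469) and Cdh1 (0.29, 0.265) did not pass, whereas the matrix proteins Tnc and Sparc rose by 3.14 and 2.22, N-cadherin Cdh2 by 1.01, and the keratin Krt18 fell by 1.51. Of the 7 epithelial genes that rose, Ehf had no count in DMSO and 36 to 201 with alectinib. That is at least 23.9-fold higher when DMSO is set to the floor.

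Most genes of protein synthesis fell. Ribosomal proteins build the subunits of the ribosome, nucleolar factors assemble them, and tRNA synthetases load tRNAs with amino acids. All 77 ribosomal protein genes tested fell, against 14.6% of all genes, with log2 fold changes between -1.65 and -0.52 and a median of -0.98. With the class term 72 of them fell (against 8.54%), and the day 2 median was -0.79. Rplp0, of the ribosomal stalk, read 2871, 3120.0, 2411 and 3193 CPM in DMSO and 2114, 1623, 1215 and 1415 CPM in alectinib (-0.89 ± 0.15, adjusted p = 0.000871, edgeR). The 2 ranges did not touch. Ribosomal protein genes have many near-identical pseudogenes, among which the counting could split reads, so that single values are uncertain. Of 56 ribosome biogenesis genes, 50 fell and 0 rose (median -0.97), and 30 fell with the class term and 32 without day 3. Npm1, nucleophosmin, went from 1545, 1290.0, 1228 and 1286 to 743, 658, 477 and 429.5 CPM (-1.24 ± 0.14), and Nop56, of the box C/D complex that methylates ribosomal RNA, from 226, 205, 366 and 102 to 79.9, 90.1, 63.1 and 56.6 CPM (-1.52 ± 0.28). Of 18 cytosolic tRNA synthetases, 16 fell and 0 rose (14 with the class term), with Cars at -1.97, Iars at -1.56 and Vars at -1.19. Dars (-0.32) and Hars (-0.22) did not pass.

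Genes that ATF4 is known to activate, many of which make or import amino acids, had the lowest median of these groups. ATF4 is a transcription factor whose mRNA is translated when amino acids run short or when mTORC1 is active. Of 27 genes of the list, 21 fell (77.8%, against 14.6% of all genes) and 0 rose, with a median log2 fold change of -1.99. With the class term 21 fell, and the day 2 median was -1.97. Asns, asparagine synthetase, read 118, 369, 513 and 250.5 CPM in DMSO and 45.4, 62.2, 48.2 and 34.4 CPM in alectinib (-2.57 ± 0.30, adjusted p = 4.97e-05, edgeR). Cth, cystathionine gamma-lyase, which makes cysteine, went from 15.3, 68.1, 129.5 and 60.9 to 1.64, 1.96, 1.14 and 1.00 CPM (-5.28 ± 0.48), the largest fall of the list. Phgdh, the first step of serine synthesis, went from 442, 729, 1145 and 619 to 166, 213, 126 and 89.1 CPM (-2.29 ± 0.26). For all 3 genes the lowest DMSO value was that of day 1 and still lay above the highest value with alectinib. The next steps of serine and one-carbon metabolism, Psat1, Psph, Shmt2 and Mthfd2, had log2 fold changes of -2.54, -2.28, -2.37 and -2.15. Of 17 amino acid and glucose carriers, 4 rose (23.5%, near the 19.0% of all genes) and 8 fell (47.1%), also with the class term. The cystine carrier Slc7a11 fell from 45.0, 107, 187 and 90.9 to 5.98, 19.8, 29.5 and 16.1 CPM. The carriers of glycine (Slc6a9), glutamine (Slc1a5) and leucine (Slc7a5) also fell, at -3.21, -2.41 and -1.99, whereas the cationic amino acid carrier Slc7a2 rose by 4.39. Among feedback genes, Trib3, a pseudokinase, read 12.8, 160.2, 317 and 132 CPM in DMSO and 6.46, 9.19, 16.3 and 10.4 CPM in alectinib, and Chac1, which degrades glutathione, 7.22, 90.2, 58.7 and 33.1 and 4.44, 5.14, 17.9 and 6.95 CPM. Their DMSO levels of day 1 lay below their alectinib levels of day 3, so that the ranges overlapped, and their log2 fold changes were -3.38 and -2.19. Atf4 itself fell by 1.43 (adjusted p = 0.00104), with overlapping ranges, and Atf3, Ppp1r15a and Ddit4 did not pass, at -2.35, -1.47 and -1.05.

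An ATF4 element (TGATGNAA, either strand) was found in 8 of 29 windows of the ATF4 list (27.6%) and in 5 of 10 windows matched to tRNA synthetase genes, compared with 3.97% of all windows and 2.29% of those of genes tested. The first list was written from known targets of the factor, so that its share is no independent measure. The 250 bases before the start are shown for Asns (chr6:7693210-7693459, minus strand), Chac1 (chr2:119350992-119351241, plus strand) and Aars, alanyl-tRNA synthetase (chr8:111033592-111033841, plus strand), since Asns and Chac1 of the ATF4 list and Aars of the synthetases hold a match, which is in capitals. It begins at positions -23, -193 and -112 relative to the start.
Asns: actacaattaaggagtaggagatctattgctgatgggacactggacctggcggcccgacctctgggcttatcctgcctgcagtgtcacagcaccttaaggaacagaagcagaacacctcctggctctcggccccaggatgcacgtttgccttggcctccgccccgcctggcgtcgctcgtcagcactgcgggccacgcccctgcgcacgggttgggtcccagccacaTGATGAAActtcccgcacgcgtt
Chac1: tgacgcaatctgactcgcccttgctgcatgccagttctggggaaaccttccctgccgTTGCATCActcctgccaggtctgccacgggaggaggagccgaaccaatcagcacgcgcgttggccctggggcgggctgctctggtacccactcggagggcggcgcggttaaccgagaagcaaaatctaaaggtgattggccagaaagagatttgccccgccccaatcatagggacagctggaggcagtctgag
Aars: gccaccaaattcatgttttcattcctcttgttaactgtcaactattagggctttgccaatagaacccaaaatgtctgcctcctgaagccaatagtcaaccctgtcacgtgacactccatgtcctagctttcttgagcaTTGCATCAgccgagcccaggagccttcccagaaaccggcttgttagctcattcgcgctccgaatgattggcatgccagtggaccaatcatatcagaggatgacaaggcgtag

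**Figure D3:**
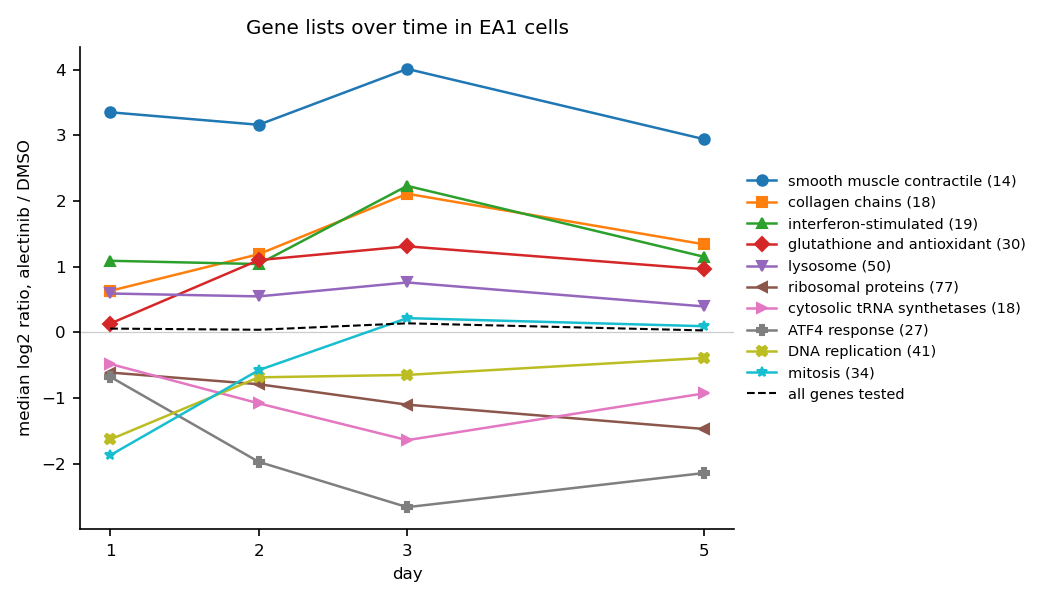
Median log2 ratio of alectinib to DMSO (vertical axis) in EA1 over the tested members of 10 gene lists and over all genes tested, after 1, 2, 3 and 5 days (horizontal axis). Contractile genes stay above 2 and ATF4 response genes below -0.5 on all 4 days, while the mitosis list goes from -1.87 on day 1 to 0.09 on day 5.

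Of 41 DNA replication genes, 27 fell (65.9%, against 14.6% of all genes) and 0 rose. Only 10 fell with the class term (against 8.54%), and without day 1 11 fell, and the list's median log2 ratio went from -1.63 on day 1 to -0.39 on day 5. Cdt1, which licenses replication origins, read 114, 103, 129 and 89.3 CPM in DMSO and 30.8, 29.3, 26.9 and 24.3 CPM with alectinib (-1.96 ± 0.17), lower on every day. Of 34 mitosis genes 2 fell and 0 rose, Ndc80 (-1.15) and Bub1 (-0.92), while 9 had an unadjusted p-value below 0.05. The 2 are 5.88% of the list, against 14.6% of all genes, but the number that fell was 8 without day 3, 0 with the class term, 9 with DESeq2 and 18 without a filter. The level of Ccnb1, cyclin B1, in DMSO was 162, 87.6, 32.7 and 16.8 CPM and with alectinib 38.5, 55.4, 40.8 and 31.8 CPM, so that DMSO cultures themselves lost the transcript over the days and crossed the alectinib level by day 3. Its fold change was not past the threshold (adjusted p = 0.514, edgeR). Of 29 nucleotide synthesis genes 14 fell and 1, Prps2, rose (10 and 1 with the class term), among them Cad, which starts pyrimidine synthesis (-1.14), and Impdh2, of guanine nucleotide synthesis (-1.05). Tests of a change of the effect with time called 3 genes, all falling, which is 0.0210% of genes tested, and 1646 genes had an unadjusted p-value below 0.05. Ndrg1, a gene induced by hypoxia and differentiation, was higher on each later day in DMSO (40.6, 203, 473 and 1376 CPM) and stayed in a narrow range with alectinib (410.0, 364, 394 and 517 CPM), which gave a change of the effect of -2.05 ± 0.20 per doubling of days (adjusted p = 0.00938). For Hip1r, an endocytic adaptor, levels were 41.0, 53.7, 67.8 and 133 CPM in DMSO and 109.6, 67.7, 63.1 and 67.4 CPM with alectinib (-1.02 ± 0.13, adjusted p = 0.0365). The third was G930009F23Rik, of unknown function. No gene was called without the replicate block, without day 1 or without day 5, and 1 was called without day 2.

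Of the glutathione and antioxidant genes, most that passed the test rose. Glutathione is the main thiol of the cell, and transferases couple it to reactive compounds. Of 30 genes of the list, 17 rose (56.7%) and 3 fell (10.0%, against 19.0% and 14.6% of all genes), with a median log2 fold change of 0.97 (14 and 2 with the class term and 9 and 2 without day 3). Gclc, the catalytic chain of the rate-limiting enzyme of glutathione synthesis, read 217, 190.4, 207 and 154 CPM in DMSO and 373, 695, 843 and 761 CPM with alectinib (1.75 ± 0.38, adjusted p = 0.00346, edgeR). Gsta4, which conjugates lipid aldehydes to glutathione, went from 40.0, 50.6, 17.5 and 40.7 to 119, 276, 274 and 368 CPM (2.78 ± 0.41), and Mgst1, a membrane-bound glutathione transferase, from 39.3, 83.6, 25.1 and 88.7 to 172, 332, 394 and 410.1 CPM (2.55 ± 0.34). All 4 alectinib libraries exceeded all 4 DMSO libraries for these genes. Gstm2 rose by 3.65, the modifier chain Gclm by 1.29 and sulfiredoxin Srxn1 by 0.99, while glutathione reductase Gsr and the cystine carrier Slc7a11 fell, at -0.70 and -2.62. Gsta3 had no count in DMSO and was at least 13.5-fold higher with alectinib. The widely used NRF2 targets Nqo1 (0.66, adjusted p = 0.293), Txnrd1 (-0.01, 0.974) and Hmox1 (0.65, 0.175) did not pass. Glutathione transferases are a family of similar genes, and reads could be split between them. The core of the antioxidant response element (TGACNNNGC, either strand) was found in 10 of 30 windows of the list (33.3%), in 12.4% of all windows and in 14.4% of those of genes tested, but also in 9 of 29 windows of the ATF4 list (31.0%), many of whose genes fell. Mgst1 has 2 windows, of which 1 holds a match, at position -56. The 250 bases before that start are shown, with the match in capitals (chr6:138140277-138140526, plus strand).
Mgst1: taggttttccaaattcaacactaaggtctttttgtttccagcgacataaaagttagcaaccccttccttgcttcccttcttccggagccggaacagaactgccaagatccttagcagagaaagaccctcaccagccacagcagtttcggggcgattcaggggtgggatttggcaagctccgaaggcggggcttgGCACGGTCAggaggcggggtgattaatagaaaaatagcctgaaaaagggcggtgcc

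Of 20 enzymes and carriers that oxidize aldehydes or handle retinoids, 11 rose and 0 fell (9 and 0 with the class term). Aldh3a1 read 55.4, 64.1, 9.94 and 27.9 CPM in DMSO and 295, 256, 332 and 582 CPM with alectinib (3.42 ± 0.58), and Aldh1a1, which makes retinoic acid, 0.628, 0.111, 0 and 0.129 and 2.41, 7.47, 11.7 and 20.2 CPM (5.23 ± 0.70). Aldh1a1 thus came from the floor, and its alectinib level was highest on day 5. Dhrs3, a retinal reductase, rose by 1.87. Of 6 tested targets of the aryl hydrocarbon receptor 3 rose, Cyp1b1 (3.52), Aldh3a1 and Ugt1a6a (2.41), and 0 fell. Of 22 genes of fatty acid oxidation, 15 rose and 0 fell, with a median of 0.72 (10 with the class term and 7 without day 3). Cpt1a, which admits fatty acids to the mitochondrion, went from 125, 164, 46.0 and 93.5 to 286, 280.0, 284 and 254 CPM (1.50 ± 0.30). Nuclear genes of the respiratory chain showed no such shift, with 1 of 51 higher and 2 lower (0 and 0 with the class term). Of 13 mitochondrial genes of the chain, 8 rose, but 12 of the 13 enter the ratio that defines the library class. With the class term 3 rose, mt-Nd6, which does not enter it, and mt-Nd5 and mt-Co3, which do. The next 3 lists lay near or below the shares of all genes, 19.0% higher and 14.6% lower. Of 20 glycolysis genes 1 rose and 4 fell (1 and 1 with the class term, 0 and 1 without day 5), of 19 hypoxia genes 2 rose and 2 fell (1 and 0 with the class term, 1 and 0 without day 3, 4 and 0 without day 5), and of 24 genes of cholesterol synthesis 2 rose and 2 fell (1 and 1 with the class term, 0 and 4 without day 3). The hypoxia median log2 ratio lay between 0.20 and 0.80 on days 1 to 3 and was -1.41 on day 5.

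The list of hydrolases, membrane proteins and the proton pump of the lysosome gave 27 of 50 genes that rose (54.0%, against 19.0% of all genes) and 0 that fell (25 and 0 with the class term, 29 and 1 with DESeq2), with a median of 0.56 and a day 2 median of 0.55. Psap, the precursor of the saposins, read 447, 564, 434 and 682 CPM in DMSO and 841, 1064, 1281 and 1235 CPM with alectinib (1.06 ± 0.15, adjusted p = 0.000189, edgeR). Lamp1, the main glycoprotein of the lysosomal membrane, went from 616, 704, 649 and 624 to 1007, 1043, 1013 and 971 CPM (0.64 ± 0.12). The change was small and the 2 groups were tight, with no overlap. Gm2a, Lipa, Hexa and Smpd1, which degrade lipids, had log2 fold changes of 1.83, 1.48, 1.45 and 1.10. The regulators Tfeb (0.35) and Tfe3 (-0.19) did not pass. Of 28 autophagy genes, 11 rose and 2 fell, but 3 and 2 with the class term and 4 and 3 without day 1. CACGTG, the core of the element through which TFEB acts, was found in 15 of 46 windows of the lysosome list (32.6%), in 7.15% of all windows and in 9.71% of those of genes tested. It was also in 11 of 53 windows of the ribosome biogenesis list (20.8%) and 3 of 10 of the tRNA synthetases, both lists that fell, and the longer CLEAR box was in 1 of 46 windows of the lysosome list (2.17%) and in 0.326% of all windows. The 250 bases before the start of Lamp1 hold it 4 times, in capitals (chr8:13158911-13159160, plus strand).
Lamp1: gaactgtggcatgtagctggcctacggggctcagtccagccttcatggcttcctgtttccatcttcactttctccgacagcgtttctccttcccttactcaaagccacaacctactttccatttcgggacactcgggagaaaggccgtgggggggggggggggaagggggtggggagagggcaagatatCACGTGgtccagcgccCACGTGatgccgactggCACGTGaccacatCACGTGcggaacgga

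Among genes of innate immunity, complement and interferon-stimulated genes were examined. Of 12 complement genes, 6 rose (50.0%, against 19.0% of all genes) and 1, Cfp, fell (6 and 0 with the class term). Of the 5 with at least 10 counts in every library 2 rose and 1 fell, with a median of 0.559. C3, the central component, read 3.87, 11.2, 7.59 and 14.3 CPM in DMSO and 131, 171, 257 and 388 CPM with alectinib (4.69 ± 0.56, adjusted p = 7.5e-05, edgeR), and C1s1, the serine protease of the C1 complex, 0.105, 0.111, 0.214 and 1.03 and 8.97, 10.2, 20.0 and 30.2 CPM (5.67 ± 0.60). The lowest level with alectinib was in both cases well above the highest in DMSO. C1ra and Masp1, also proteases that start the cascade, had log2 fold changes of 4.30 and 3.12. Of 19 interferon-stimulated genes, 12 rose and 0 fell, with a median of 1.45 (10 with the class term), among them Ddx58, the RNA sensor RIG-I, from 6.17, 6.80, 2.67 and 10.5 to 31.7, 27.6, 32.4 and 38.5 CPM (2.42 ± 0.25). Ifih1, Parp14 and Ifit2 had log2 fold changes of 2.17, 2.11 and 2.48, and Usp18 (-0.47), Oasl1 (-0.58) and Isg15 (1.27) did not pass. Of 13 genes of MHC class I presentation 5 rose and 1 fell, 4 and 0 with the class term and 2 and 0 without day 3. The chaperone Tapbp rose by 1.58, whereas the heavy chains H2-K1 (-0.95, adjusted p = 0.15) and H2-D1 (-0.25, 0.231) did not pass. H2 genes are near-identical copies, so that reads could be shared among them.

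**Figure D4:**
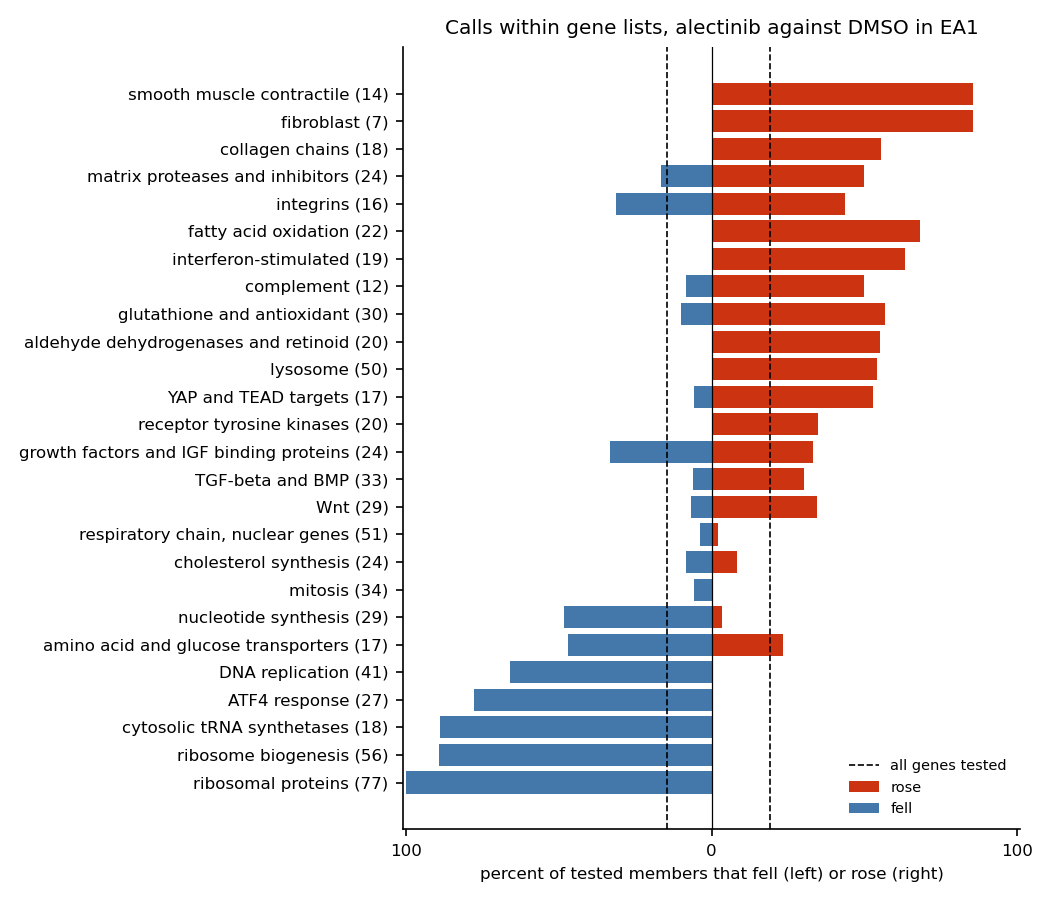
Percent of tested members that rose (to the right) or fell (to the left) with alectinib in EA1, for 26 gene lists (number tested in brackets). Dashed lines mark the shares over all genes tested, 19.0% higher and 14.6% lower. Ribosomal proteins, ribosome biogenesis, tRNA synthetases and ATF4 response genes lie far to the left, and contractile, fibroblast, fatty acid oxidation, interferon and glutathione genes to the right.

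Growth factor genes moved both ways, with 8 of 24 higher and 8 lower (33.3% each, against 19.0% and 14.6% of all genes). The class term left 5 higher and 6 lower (against 12% and 8.54%), and with at least 10 counts in every library 2 and 6 of 12. Areg, a ligand of the EGF receptor, read 225, 433, 2252 and 694 CPM in DMSO and 58.0, 115, 197 and 119.6 CPM with alectinib (-2.47 ± 0.32, adjusted p = 0.0001, edgeR), and Hbegf, Btc and Ereg, which bind the same receptor, fell, at -1.80, -1.39 and -1.25, of which only Ereg had overlapping ranges. Nrg1, a ligand of ERBB3 and ERBB4, went the other way, from 11.1, 8.80, 12.1 and 15.6 to 61.6, 58.4, 59.8 and 61.7 CPM (2.37 ± 0.21). Igf1, the ligand of the IGF1 receptor, rose from 0.941, 0.557, 0.641 and 1.03 to 21.0, 25.1, 43.7 and 54.2 CPM (5.41 ± 0.40), and Hgf, the ligand of MET, from 0.314, 0.334, 0.214 and 0.259 to 1.83, 7.47, 15.8 and 25.6 CPM (5.01 ± 0.68). Both were close to the floor in DMSO and reached their highest level on day 5. Among IGF binding proteins, Igfbp2 had no count in DMSO and 2 to 637 with alectinib, lowest on day 1 and highest on day 5, which is at least 56.8-fold higher over the 4 days. It was not called by DESeq2 (adjusted p = 0.161) and had too few counts to be tested without day 5, and Igfbp3 fell by 2.24. Pappa2, a protease that cleaves IGF binding proteins, rose from 3.35, 2.00, 0.641 and 2.33 to 28.5, 137, 301 and 408 CPM. Of 20 receptor tyrosine kinases, 7 rose (35.0%, against 19.0%) and 0 fell (4 with the class term, against 12%), with Fgfr2 going from 0.837, 0.780, 0.214 and 0.775 to 13.8, 16.5, 11.6 and 17.2 CPM (4.53 ± 0.37) and Met at 1.04. Egfr (0.20), Igf1r (0.03) and Axl (-0.06) did not pass.

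Genes of developmental signaling are to be read against the shares of all genes, 19.0% higher and 14.6% lower. Of 33 TGF-beta and BMP genes 10 rose and 2 fell (8 and 2 with the class term). Tgfb2 rose from 0.523, 0.446, 0.427 and 0.259 to 6.85, 9.55, 18.9 and 28.7 CPM (5.04 ± 0.46), its relatives Tgfb3 by 2.00 and Bmp4 by 2.36, and Bmp2 fell by 2.24. Of 29 Wnt genes 10 rose and 2 fell (7 and 2 with the class term and 5 and 3 without day 5). Lgr4, an R-spondin receptor, went from 14.6, 8.36, 8.66 and 16.2 to 106, 96.9, 105 and 117 CPM (3.20 ± 0.27, adjusted p = 4.99e-06), the ligand Wnt4 rose by 4.16 and the ligand Wnt7b fell by 3.13. Axin2, the usual readout of beta-catenin, did not pass (0.76, adjusted p = 0.6). Notch genes gave 3 of 14 in each direction (21.4%), near those shares. Hey1, a Notch target, rose from 3.03, 2.67, 1.50 and 4.26 to 14.2, 24.4, 31.6 and 76.6 CPM (3.48 ± 0.49), whereas the target Nrarp and the ligands Jag1 and Jag2 fell, at -2.06, -1.55 and -1.51. Of 17 targets of YAP and TEAD 9 rose and 1 fell, but 4 and 1 with the class term and 5 and 1 without day 1, with Ccn1 at 1.60 and Amotl2 at 1.52. In the list of ephrins, semaphorins and netrins with their receptors, 16 of 42 rose and 7 fell (14 and 4 with the class term), with the receptor Ephb3 at 3.37 and the ligands Ntn1 and Ntn4 at 3.31 and 2.67.

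Lists of cell death and stress genes are to be read against 19.0% of all genes higher and 14.6% lower. Of 14 BCL2 family genes 4 rose (28.6%) and 1 fell (7.14%), and 3 and 1 did so with the class term. Bmf, a BH3-only protein that promotes death, went from 36.9, 84.3, 25.2 and 69.9 to 218, 228, 220.2 and 203 CPM (2.16 ± 0.45), the effector Bak1 rose by 0.88, and the survival gene Bcl2l1 fell by 0.98. Bcl2l11, which encodes BIM, had a log2 fold change of 0.91 (adjusted p = 0.0301) and 0.88 with the class term (adjusted p = 0.108), and Mcl1 did not pass (-0.04). Of 18 genes that FOXO factors are known to activate, 7 rose (38.9%) and 1 fell (4 and 0 with the class term), with Irs2, an adaptor of the insulin receptor, from 11.8, 8.91, 6.09 and 11.9 to 62.5, 40.4, 47.2 and 54.4 CPM (2.42 ± 0.25), Fbxo32 at 2.83 and Sesn3 at 2.07. Of 19 heat shock genes 2 rose and 7 fell (36.8%, 2 and 5 with the class term), with the mitochondrial chaperones Hspd1 and Hspe1 at -0.99 and -0.80 and the small chaperone Cryab at 3.57, whose DMSO level of day 5 (89.4 CPM) was far above those of days 1 to 3. Of 21 ER chaperones 0 rose and 4 fell (19.0%, and 2 with the class term), Hspa5 by 0.89. Of 16 clock genes 1 rose (6.25%) and 3 fell (18.8%, 1 and 2 with the class term), and Ciart, a repressor of the clock, went from 3.87, 13.4, 29.9 and 18.9 to 0.386, 2.21, 3.11 and 1.34 CPM (-3.23 ± 0.26). Of 16 ABC transporters 5 rose (31.2%) and 2 fell (12.5%), also with the class term. The 2 that fell were the efflux pumps Abcb1a and Abcb1b, which share most of their sequence, at -2.13 and -2.08, while Abcc3 rose by 2.86. Of 14 genes of metallothioneins, zinc and iron 5 rose (35.7%) and 1 fell (7.14%, 4 and 1 with the class term). The iron exporter Slc40a1 rose by 2.90 ± 0.23, and the zinc importers Slc39a14 and Slc39a4 went apart, at -2.11 and 3.54.

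The 12 largest rises and falls among genes with an average log2 CPM of at least 3 added some that no list held. Hmga1, a chromatin protein of growing and embryonic cells, fell from 710.1, 618, 1313 and 1054 CPM to 39.7, 38.8, 24.6 and 12.9 CPM (-5.04 ± 0.46, adjusted p = 9.35e-06, edgeR). Its level with alectinib was lower on each later day, although the change of the effect per doubling of days was not past the threshold (adjusted p = 0.162). Il5ra, a chain of an interleukin receptor, the hormone Stc1, the cardiac troponin Tnnt2 and the mannose receptor Mrc1 fell, at -5.54, -4.17, -3.90 and -3.49. The neuropeptide precursor Nts rose from 1.88, 2.67, 0.321 and 0.259 to 30.6, 85.6, 85.8 and 149.6 CPM (5.99 ± 0.75), the alkaline phosphatase Alpl by 5.15 and the acute-phase protein Saa3 by 5.09. Cxcl15, an alveolar type 2 marker that is also a chemokine, rose from 0.209, 0.780, 0.321 and 0.388 to 26.6, 86.6, 169.5 and 204 CPM. In the largest rises mt-Co3 also stood, at 4.69, with 7.11, 5.01, 2.35 and 4.14 CPM in DMSO and 202, 12.5, 204 and 216 CPM with alectinib. mt-Co3 is one of the genes that define the library class. Its day 2 log2 ratio was 1.28 and the log2 fold change with the class term was 1.35. Prkcb, a protein kinase C, had 47 to 92 counts in DMSO and none with alectinib, which is at least 28.8-fold lower.

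Where EA1 differed from EA2 and EA3 was tested as the EA1 effect minus the mean effect of the other lines. This difference was above 0 for 391 genes and below 0 for 151 (2.74% and 1.06%, together 3.80%, of genes tested). With the class term the numbers were 243 and 75 (1.70% and 0.526%, together 2.23%). Without day 3 they were 52 and 17, without day 2 98 and 28, and without day 5 151 and 41. Col4a1, Itgb3, Slc7a2, Lbp and Zfhx4 were past the threshold also with the class term and without any single day, but Slc7a2 was not in a fit without the blocks of line and day (adjusted p = 0.0561). In that fit 11 of 28 named differences were not past it, among them Aldh3a1 (0.0789), Asns (0.195), Alpl (0.131), Aldh1a3 (0.0926) and Rgs5 (0.251). Of the glutathione and antioxidant list, 8 of 30 were above and 0 below, but 0 were above without day 2 or without day 3. Gclc rose in EA1 by 1.75 but stood at -0.34 in EA2 and -0.13 in EA3, a difference of 1.99 (95% confidence interval 1.00 to 2.97, adjusted p = 0.0313, edgeR). Gsta4 differed by 2.44 (adjusted p = 0.0134) and Aldh3a1 by 3.06 (adjusted p = 0.0256). Gclc and Gsta4 were not past the threshold without day 2 (adjusted p = 0.161 and 0.0826) or without day 3 (0.261 and 0.162). Aldh3a1 was not past it without any 1 of the 4 days (adjusted p between 0.0511 and 0.235) or with the class term (0.0575). Collagens gave 5 of 18 above and 1 below (2 above without day 2 or day 3), with Col4a1 at -0.15 in EA2, 0.46 in EA3 and a difference of 1.59 (adjusted p = 0.00173), and Itgb3 differed by 3.08 (adjusted p = 0.00185). Of the ATF4 list, 5 of 27 were below and 0 above, and 0 were below without day 2, day 3 or day 5. Among the 5 were Asns, with -0.43 in EA2 and -1.94 in EA3 (difference -1.38, adjusted p = 0.0434), and Slc6a9 (difference -2.19, adjusted p = 0.0113). The call of Asns was lost without day 2, 3 or 5 (adjusted p = 0.15, 0.224 and 0.191) and with the class term (0.0528), and that of Slc6a9 without day 2, 3 or 5 (0.0945, 0.109 and 0.064). Slc7a2 rose in EA1 by 4.39 and stood at 0.00 in EA2 and 2.03 in EA3 (difference 3.37, 95% confidence interval 2.42 to 4.32, adjusted p = 0.00173). For ribosomal proteins, ribosome biogenesis, lysosome and smooth muscle genes, 0, 0, 2 and 1 members were above and 0 below. The median log2 fold change of the ribosomal protein list was nevertheless -0.26 in EA2 and -0.99 in EA3, compared with -0.98 in EA1, that of ribosome biogenesis -0.31 and -0.61, compared with -0.97, that of smooth muscle genes 1.88 and 1.94, compared with 4.49, and that of lysosome genes 0.34 and 0.60, compared with 0.56.

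**Figure D5:**
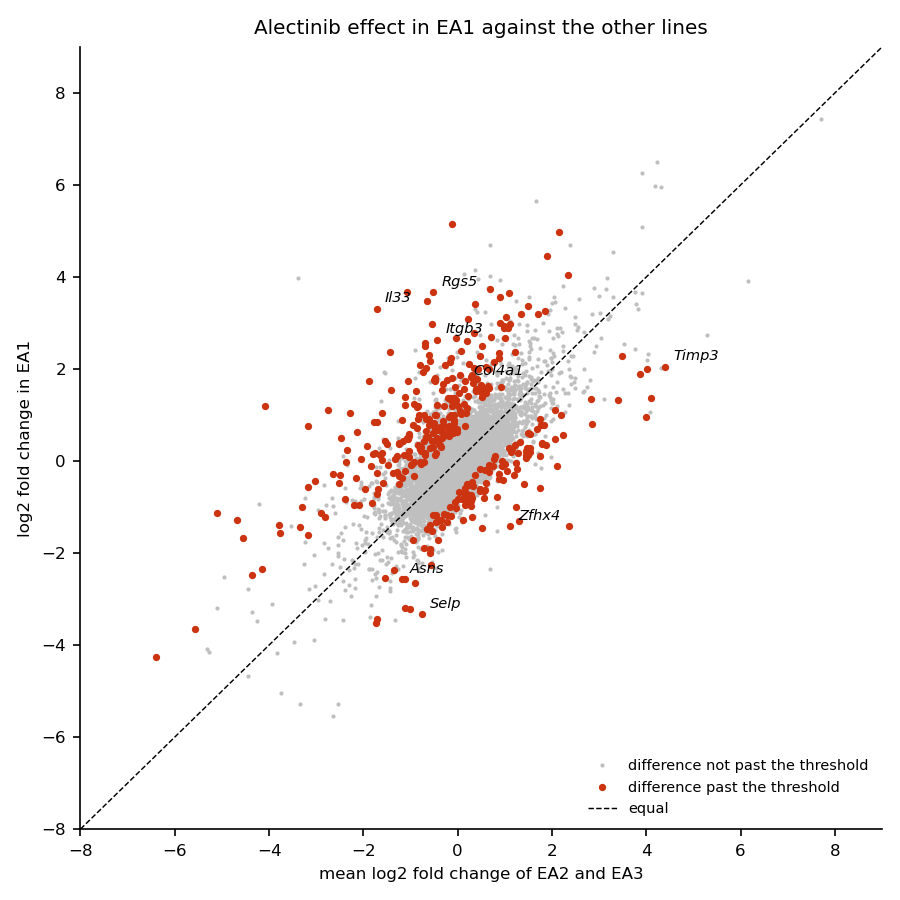
Log2 fold change with alectinib in EA1 (vertical axis) against the mean log2 fold change of EA2 and EA3 (horizontal axis) for genes tested that had an average log2 CPM of at least 3 in EA1. Each point is 1 gene, and coloured points passed the test of the difference. Il33, Rgs5, Itgb3 and Col4a1 lie above the diagonal and Selp, Zfhx4 and Timp3 below it.

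Among the genes with the largest differences, some went in opposite directions. Il33, an alarmin cytokine, read 23.3, 23.5, 14.9 and 34.6 CPM in DMSO and 84.5, 248, 287 and 441 CPM with alectinib in EA1 (3.31 ± 0.58), and had log2 fold changes of -2.99 in EA2 and -0.45 in EA3 (difference 5.03 ± 0.71, adjusted p = 0.00322, edgeR). Hey1 differed by 4.13 (adjusted p = 0.00349), Lbp, the lipopolysaccharide binding protein, by 4.75 (adjusted p = 0.0014), Alpl by 5.27 (adjusted p = 0.00778) and Rgs5, a regulator of G proteins, by 4.19 (adjusted p = 0.0125). Each of these was higher with alectinib on all 4 days in EA1. Rgs2 and Aldh1a3 also lay above. They fell in EA2 and EA3 (-5.70 and -2.49, and -4.66 and -5.56), whereas their EA1 effects did not pass (1.19 and -1.13). On the other side, Selp, an adhesion molecule, fell in EA1 from 37.1, 58.0, 71.7 and 60.0 to 4.44, 4.41, 7.35 and 6.20 CPM (-3.33 ± 0.47) and stood at 0.07 and -1.59 in EA2 and EA3 (difference -2.56, adjusted p = 0.0215). Zfhx4, a homeobox factor, fell by 1.41 in EA1 and was at 1.53 and 0.70 (adjusted p of the difference = 0.00185), and Timp3, a protease inhibitor, rose by 2.05 in EA1 but by 4.64 and 4.16 in the others (adjusted p of the difference = 0.0393). The calls of Il33, Hey1, Alpl and Rgs2 were lost without day 3 (adjusted p between 0.0526 and 0.0724), and that of Aldh1a3 without day 2 or day 5. Those of Rgs5 and Selp were lost without day 1, 2 or 3 (adjusted p between 0.0537 and 0.2), and that of Timp3 without day 2, 3 or 5 (0.0972, 0.224 and 0.232) and with the class term (0.096).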

How the data were processed

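Cells were grown in 10 cm dishes, and RNA was purified with a Zymo kit and made into stranded mRNA libraries. Per the labels and the study's methods, the authors checked reads with FastQC, trimmed them with bbduk and counted them per gene with STAR on mm10; versions, the strand column and the annotation release are not given in the sources used here. The deposited values are raw counts, from which library sizes, TMM factors and CPM were computed anew. The 24 rows whose names are numbers (0.151% to 0.177% of counts in EA1) were left out, and some items are not reported here.

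One model (edgeR 4.0.16, R 4.3.3, quasi-likelihood, robust) was fitted to the 24 libraries of days 1 to 5 of EA1, EA2 and EA3, after filtering by filterByExpr, with 12 blocks of line and day and an alectinib effect per line. From it came the EA1 effect and its difference from the mean of the other lines, and a model with a log2(day) term gave the change per doubling of days. Values after ± are standard errors, and p-values were adjusted over all 14264 genes tested. No label states that dishes of different days were independent cultures, so that p-values measure the spread between these libraries, which may be technical.

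On simulated counts with 100 genes changed 2-fold (log2 of 1) and 100 changed 4-fold (log2 of 2), the fit of the EA1 effect recovered 62 and 96 of them and called 4 of 14064 unchanged genes. For the difference it recovered 34 and 92 and for the change with days 32 and 89. The changed genes were drawn from those with higher average counts, and far fewer were changed than the data called. Simulated libraries varied independently, without the class split. These numbers therefore do not give the recovery or the false calls for genes near the floor or under that split.

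The members and gene lists were chosen with earlier results of these data known, and no set test was run. Genes were named by rule: the 12 largest rises and falls whose direction held on every day, among genes averaging a log2 CPM of 3 or more, up to 4 called members per list, and the 8 largest differences and 6 largest changes per doubling of days on each side. Further members were described as a pathway's defining steps or after their values had been seen. Gene positions are those of GENCODE for mm10, matched by symbol. Promoter windows are from RefSeq (GRCm38.p6) and were matched by symbol to 10247 of the genes tested. Alternatives were DESeq2 (1.42.0) size factors and its Wald test, library size alone, other filters, fits without the block or for EA1 alone, leaving out each day, and the term for the library class.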

Additional observations from a re-analysis of the deposited data

Results flagged for a closer look

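Among the 60 genes whose 8 EA1 values are given, 5 of 120 groups of 4 libraries held a library far from the other 3 by Dixon's criterion, which chance meets in about 1 in 20 groups. With alectinib, mt-Co3 was at 12.5 CPM on day 2, compared with 202 to 216 CPM on the other days, and the day 2 library is the one of the other mitochondrial class. Hip1r was at 109.6 CPM on day 1 with alectinib and between 63.1 and 67.7 CPM afterwards. In DMSO, Cnn1 was at 1.81 CPM and C1s1 at 1.03 CPM on day 5, above the highest of the other days (0.641 and 0.214 CPM), and Fgfr2 was at 0.214 CPM on day 3, compared with 0.776 CPM or more. The last 3 values rest on few counts.

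The effect of alectinib in EA1 differed from the mean effect in EA2 and EA3, by the test of the difference and without any single day, for Lbp (4.75, adjusted p = 0.0014, edgeR), Slc7a2 (3.37, 0.00173), Itgb3 (3.08, 0.00185), Col4a1 (1.59, 0.00173) and Zfhx4 (-2.52, 0.00185). Without the blocks of line and day, Slc7a2 did not pass (adjusted p = 0.0561). Lbp was higher with alectinib on 4 of 4 days in EA1 and had log2 fold changes of -2.80 in EA2 and 0.64 in EA3. Itgb3 had -0.91 and 0.04, compared with 2.64 in EA1.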

How the results depend on the processing

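For the EA1 effect, 1745 genes rose when at least 10 counts were asked for in every library, a filter that leaves fewer genes and removes those silent in 1 group, and the numbers that rose and fell ranged from 1436 to 2181 and from 1360 to 1907 when 1 day was left out, lowest without day 3. With the class term, chosen after seeing the data, they were 1716 and 1218. For the difference from EA2 and EA3, the numbers above and below were 1021 and 457 without a filter, 747 and 415 with DESeq2, 243 and 75 with the class term, 250 above with at least 10 counts, and between 52 and 336 above and 17 and 145 below without 1 day (98 and 28 without day 2, 151 and 41 without day 5). For the change per doubling of days, 1 gene was lower with library size alone, 14 were higher and 37 lower without a filter, and 85 and 161 with DESeq2. Leaving out 1 day gave 0 to 19 higher and 0 to 26 lower. The cause of these shifts was not tested. Of 335 genes examined by name, none turned its direction past the threshold in any of these fits. Of their calls 53 were lost without day 3, 53 with the class term and 30 without day 2.

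Within EA1, libraries of the same day were compared by how they deviate from the mean of their treatment, which gave r = 0.202, 0.0207, 0.0179 and 0.302 on days 1, 2, 3 and 5, so that a shared day did not pair the libraries by a criterion that asks for more than 0.1 on every day. Without the replicate block, 2455 genes rose and 1971 fell, 247 were above and 108 below in the difference, and 0 changed with days. EA1 alone with the day as a block gave 2023 and 1783. With 8212251 to 11732401 counts per library, changes of genes below about 1 CPM rest on few counts. Each day had 1 library, so that a short-lived change cannot be told apart from the state of a dish.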
